A study of Homo sapiens with 6 samples.

Results

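The network described here was made up of 10 genes that were taken by symbol from a count table of 36517 genes: MYC, MYCN, MYCL, MAX, MXD1, MXD3, MXD4, MXI1, MNT and MGA. All 10 were found, and all 10 passed the filter on low counts and were tested. The libraries came from MDA-MB-453, an established human breast cancer cell line. Control cells carried a lentivirus with a negative-control hairpin (control, 3 libraries), and the other cells carried a lentivirus with a hairpin against tRF-1-Ser, a small RNA cut from the trailer of a serine transfer RNA precursor (shtRF, 3 libraries). All libraries were labelled MDA-MB-453 and day 3, so both groups shared the cell line and the labelled day. The paper describes the sequenced cells as stable knockdown cells and their controls. The titles do not say from what event day 3 was counted. The labels name 1 hairpin condition in 1 cell line, so effects of the small RNA and of the hairpin sequence itself cannot be told apart. tRF-1-Ser is too short to be counted in messenger RNA libraries, and its loss was not checked here.

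The proteins of this network share a basic helix-loop-helix and leucine zipper domain and bind DNA as pairs. MYC, MYCN and MYCL each pair with MAX at the E-box sequence and raise transcription, most of all of genes for ribosome production, metabolism and the cell cycle. MXD1, MXD3, MXD4, MXI1 and MNT compete for the same partner and recruit the SIN3 corepressor, whereas MGA, a very large protein with a second DNA-binding domain, carries MAX into a variant Polycomb complex. The comparison of shtRF with control therefore addressed whether transcripts of the activators, of the shared partner and of the antagonists moved together or apart.

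The E-box is the base sequence CACGTG, which reads alike on both strands. RefSeq promoter windows (GRCh38.p14, 250 bases before to 50 after each start site) were used for 9 of the 10 genes. Windows on the chromosome of MYC, its own among them, were not used here. Among the 14 windows of these 9 genes, E-boxes lay in those of MXD4 and MNT only (14.3%). The share was 7.26% of all 35116 windows used and 9.22% of those of tested genes. Stretches of both are shown because these antagonist genes carry the sequence that the network binds, with the E-box in capitals and each sequence written 5′ to 3′ on the strand of its gene. The MXD4 stretch lies at chr4:2262282-2262359 on the minus strand with its E-box starting at position -238 from the start site, and the MNT stretch at chr17:2401188-2401310 on the minus strand with its E-box at position -193.
MXD4: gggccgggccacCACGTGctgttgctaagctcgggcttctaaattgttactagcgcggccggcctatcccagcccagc
MNT: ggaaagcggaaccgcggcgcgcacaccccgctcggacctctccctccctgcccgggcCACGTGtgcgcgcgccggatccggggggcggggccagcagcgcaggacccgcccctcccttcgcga
A variant E-box, CACGCG or its reverse CGCGTG, was found in windows of MXD3, MXI1 and MGA (21.4% of the 14). It was in 11.4% of all windows used and in 16.5% of those of tested genes. A match describes letters only, and binding was not measured in these cells.

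The libraries held between 63541413 and 78917459 counts each. All 9 markers of a luminal, apocrine breast cancer line (among them FOXA1 and ERBB2) were above 1 CPM (counts scaled to the normalised library total) in every library. The receptors ESR1 and PGR together stayed between 0.185 and 0.532 CPM. The luminal markers summed to between 9727 and 10490 CPM in control and between 12240 and 13510 CPM in shtRF. The 9 did not move together, since 3 were higher, 3 were lower and 3 did not pass. This was 33.3% each way, against 20.6% higher and 18.9% lower over all tested genes. Their median log2 fold change was -0.04. Of 4 fibroblast markers in the table, 1 (COL1A1) passed 1 CPM, and their sum was between 29.7 and 35.7 CPM in control and between 20.6 and 21.3 CPM in shtRF. None of 4 leukocyte and 3 endothelial markers passed 1 CPM, with sums of at most 0.215 and 0.350 CPM. Whether these shifts play a part in the results below was not tested.

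In shtRF the transcript of MYC was at 35.9% and that of MYCN at 38.3% of control, while MAX, the partner of both sides, rose 1.37-fold and the antagonist MXI1 rose 1.74-fold. The antagonists did not move as 1 group, since MXD1 and MXI1 rose and MXD3, MNT and MGA fell. By edgeR's quasi-likelihood test with Benjamini-Hochberg adjustment over 19628 genes, 8 of the 10 genes passed an adjusted p of 0.05, against 39.5% of all tested genes. Of these, 3 were higher in shtRF and 5 were lower, against backgrounds of 20.6% and 18.9%. The 3 shtRF libraries lay outside the range of the 3 control libraries for 9 of the 10 genes, a separation that 48.7% of all tested genes also had. The median log2 fold change was -0.17 over the 10 genes and -0.003 over all tested genes. The sequencing was of whole cell populations, in which fewer cells with a transcript and less transcript per cell cannot be told apart.

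**Figure D1:**
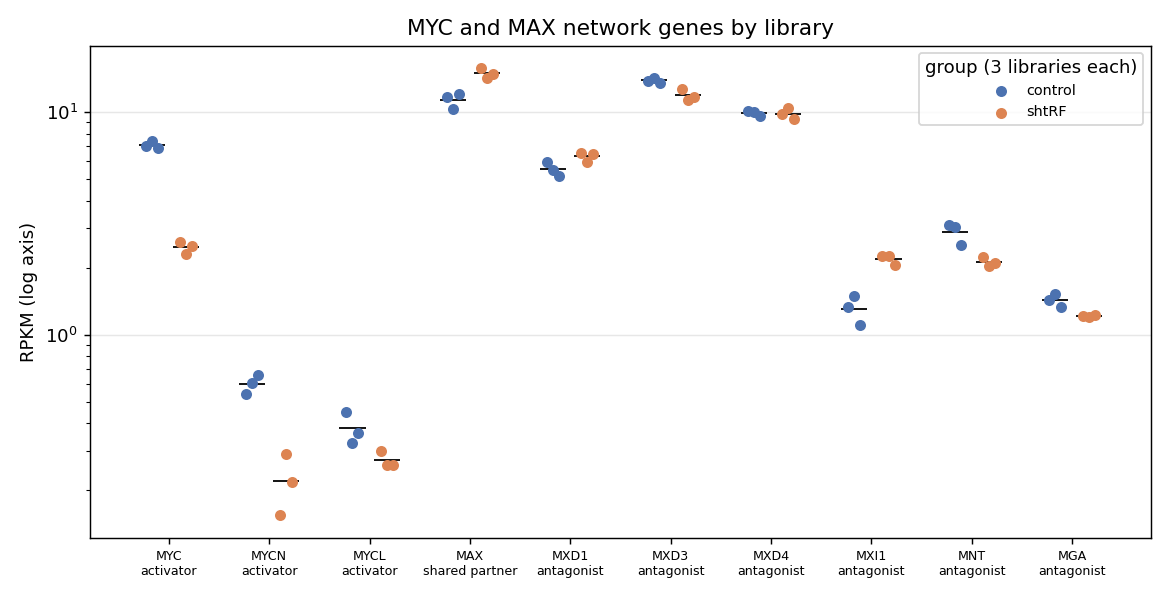
RPKM (counts per kilobase of exon, scaled to the library total, log axis) of the 10 network genes, with 1 point per library and a bar at the mean of each group of 3. MYC and MYCN lie well below control in the shtRF libraries, MAX and MXI1 lie above, and MXD4 overlaps.

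MYC, the family member found in most proliferating tissues, was counted over 3001 exonic bases at chr8:127735434-127741434 (GRCh38, plus strand), and none of these bases belonged to another gene. Control libraries had 1354, 1644 and 1635 counts of it, shtRF libraries 545, 493 and 479. Scaled to library size, this was 20.8, 21.8 and 20.5 CPM against 7.76, 7.18 and 7.72 CPM. All 3 shtRF libraries sat close together and far below every control library. The level went from 21.0 ± 0.667 to 7.55 ± 0.325 CPM (SD, n = 3 each), a log2 fold change of -1.48 with a 95% interval from -1.64 to -1.31 (SE 0.080, edgeR adjusted p = 2.51e-12). The fall passed the threshold in all 15 alternative analyses.

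MYCN, the family member best known from neuroblastoma and early development, lies at chr2:15940564-15947007 (plus strand). It was scarce, with counts of 90, 116 and 135 in control and 28, 54 and 36 in shtRF, or 1.54 ± 0.154 and 0.589 ± 0.194 CPM (SD, n = 3 each). Every shtRF library was below every control library. The log2 fold change was -1.39 (SE 0.264, 95% interval -1.94 to -0.84, edgeR adjusted p = 2.17e-04). Its interval was the widest of the 10, and it passed the threshold in 15 of 15 alternatives, also after all counts were halved. MYCNOS, the antisense RNA beside it, had 32, 22 and 19 counts in control and 10, 15 and 7 in shtRF, with a log2 fold change of -1.08 that missed the threshold (edgeR adjusted p = 0.0901). The exons of the pair share 98 bases, and reads of opposite strands in them may not have been told apart.

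MYCL, first found amplified in lung cancer, lies at chr1:39895426-39902256 (minus strand). Its counts were 146, 122 and 144 in control and 106, 94 and 84 in shtRF. These gave 1.89 ± 0.323 and 1.41 ± 0.0854 CPM (SD, n = 3 each), and the groups did not overlap. With a log2 fold change of -0.42 and a 95% interval from -0.82 to -0.01, MYCL did not pass the test over all genes (edgeR adjusted p = 0.0992, unadjusted p = 0.0452) in the reported analysis or in any of 15 alternatives.

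MAX, the obligate partner of the activators and of most of the antagonists, lies at chr14:65006174-65102695 (minus strand), where GENCODE release 29 lists 19 transcripts that were counted as 1 gene. Its counts were 3291, 3370 and 4200 in control and 4850, 4494 and 4176 in shtRF, or 50.6, 44.6 and 52.6 CPM against 69.1, 65.4 and 67.3 CPM. The lowest shtRF library was above the highest control library after scaling, although the raw counts overlapped. The rise from 49.3 ± 4.16 to 67.3 ± 1.80 CPM (SD, n = 3 each) was 0.45 on the log2 scale (SE 0.062, 95% interval 0.32 to 0.58, edgeR adjusted p = 4.17e-06). It passed the threshold in all 15 alternatives.

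**Figure D2:**
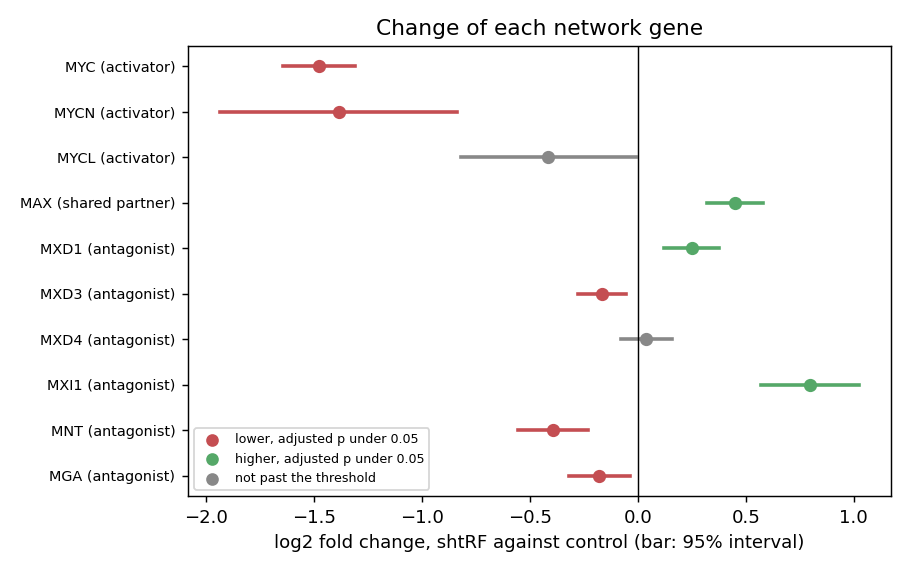
Log2 fold change of each network gene in shtRF against control from edgeR, with the 95% interval as a bar (3 libraries per group). Intervals of MYC and MYCN lie below -0.8, those of MAX, MXD1 and MXI1 lie above 0, and those of MXD3, MNT and MGA lie below 0.

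MXI1, an antagonist also called MXD2, showed the largest relative rise of the 10 genes. It lies at chr10:110207605-110287365 (plus strand), and its counts were 392, 509 and 401 in control and 725, 745 and 601 in shtRF. The level went from 5.93 ± 0.862 to 10.3 ± 0.579 CPM (SD, n = 3 each), with no overlap between the groups. The rise of 0.80 on the log2 scale (SE 0.108, 95% interval 0.57 to 1.02, edgeR adjusted p = 3.66e-06) passed the threshold in 15 of 15 alternatives. RefSeq gives MXI1 3 promoter windows, and the gene-level count does not tell which start site was used.

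MXD1, an antagonist known for its rise as cells leave the cell cycle and mature, lies at chr2:69897688-69942945 (plus strand). Its levels were 37.1, 33.9 and 32.5 CPM in control and 41.3, 39.4 and 42.2 CPM in shtRF. The shtRF libraries were all above control, by 0.25 on the log2 scale (SE 0.062, 95% interval 0.12 to 0.38, edgeR adjusted p = 0.0028). The call was lost in 2 of 15 alternatives, both of them limma on log2 RPKM with pseudocounts of 1 and 0.1 (adjusted p = 0.0741 and 0.0697). MXD1 shares 237 exonic bases on the same strand with SNRNP27, a splicing factor gene that rose by a log2 fold change of 0.35 (edgeR adjusted p = 6.01e-05). If SNRNP27 reads were spread evenly over its exons, those bases would hold the equivalent of 54.9% to 69.3% of the MXD1 count, and the real share was not tested.

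MXD3, the antagonist whose transcript is usually found in dividing cells, lies at chr5:177301461-177312757 (minus strand). Its levels were 69.9, 71.7 and 69.0 CPM in control and 65.1, 60.8 and 61.8 CPM in shtRF. The fall was small, with a log2 fold change of -0.17 (SE 0.054, 95% interval -0.28 to -0.05, edgeR adjusted p = 0.0173), and the groups did not overlap. The call was lost without shtRF replicate 2 (adjusted p = 0.0923) and without shtRF replicate 3 (adjusted p = 0.0773). Its exons share 40.4% of their bases with RAB24, on the same strand, and PRELID1, on the opposite strand, which had log2 fold changes of 0.39 and -0.21. Reads of these neighbours, spread evenly, would equal 95.3% to 106% of the MXD3 count, so its level and its fall are uncertain. More of this would come from PRELID1, whose reads would enter only if strand was not used. PRELID1 had 5735 counts in control replicate 1 and shares 61.8% of its exonic bases with MXD3. For RAB24 these were 1927 counts and 44.8%. The share that either took was not tested.

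MXD4 lies at chr4:2247432-2262294 (minus strand) and shared no exonic base with another gene. Its counts were 4574, 5189 and 5351 in control and 4814, 5233 and 4162 in shtRF, or 68.7 ± 1.64 and 70.6 ± 4.89 CPM (SD, n = 3 each). The groups overlapped. The log2 fold change of 0.04 had a 95% interval from -0.08 to 0.16 (edgeR adjusted p = 0.623), which limits any change of MXD4 to a size far below that of MYC.

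MNT, the most widely expressed antagonist across tissues, lies at chr17:2384060-2401118 (minus strand). Its levels were 26.8, 25.9 and 21.7 CPM in control and 19.3, 18.5 and 18.8 CPM in shtRF. The shtRF libraries were tightly grouped and all below control, at 76.1% of its level. The log2 fold change was -0.39 (SE 0.078, 95% interval -0.55 to -0.23, edgeR adjusted p = 3.12e-04), and it held in 15 of 15 alternatives. A noncoding gene on the opposite strand lies wholly within the MNT exons, with only 37 to 78 counts per library.

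MGA, the Polycomb-linked member, lies at chr15:41621224-41773081 (plus strand). Its levels were 24.9, 26.2 and 23.1 CPM in control and 21.3, 22.0 and 22.2 CPM in shtRF, and the groups did not overlap. The log2 fold change was -0.18 (SE 0.068, 95% interval -0.32 to -0.04, edgeR adjusted p = 0.0433). This call was the least stable of the 8: it was kept in 6 of 15 alternatives, with adjusted p from 0.0139 to 0.155, and it was lost without control replicate 1 (0.0752), control replicate 2 (0.155) and each of the shtRF libraries (0.11, 0.0969 and 0.0887), and also with no filter, with DESeq2 and with both limma fits.

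Per kilobase of exon, MXD3 had the highest control level of the network with 13.9 RPKM, ahead of MAX with 11.3 RPKM, MXD4 with 9.91 RPKM and MYC with 7.13 RPKM. MXD1 followed with 5.53 RPKM and MNT with 2.89 RPKM, then MGA with 1.43 RPKM and MXI1 with 1.31 RPKM, which overlapped. MYCN and MYCL closed the order with 0.601 and 0.380 RPKM. In shtRF MAX was the highest with 14.9 RPKM and MYC stood at 2.47 RPKM, below MXD1 with 6.33 RPKM. There the libraries of MXI1 (2.19 RPKM) and MNT (2.12 RPKM) overlapped, as did those of MYCL (0.274 RPKM) and MYCN (0.221 RPKM). Other neighbours in either order did not overlap between libraries, and because of their shared exons the places of MXD3 and MXD1, and so the order of MXD1 and MYC, are uncertain.

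The balance of the network was described by adding the RPKM of MYC, MYCN and MYCL and setting the sum against that of the 6 antagonists. The activators summed to 8.05, 8.37 and 7.92 RPKM in control and to 3.06, 2.85 and 2.99 RPKM in shtRF, a 2.73-fold lower mean. The antagonists summed to 34.9 ± 1.43 RPKM in control and 33.6 ± 1.03 RPKM in shtRF (SD, n = 3 each), a difference smaller than the spread of the control libraries. Within that sum, MXD1 and MXI1 rose while MXD3, MNT and MGA fell.

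The ratio of activators to antagonists was 0.225, 0.234 and 0.238 in control and 0.0880, 0.0859 and 0.0910 in shtRF. The groups were far apart, and the mean ratio was 2.63-fold lower in shtRF (0.232 ± 0.00660 against 0.0883 ± 0.00258, SD, n = 3 each). With MXD1 and MXD3 left out, a choice made after their shared exons had been seen, the ratio was 0.523 ± 0.0210 in control and 0.194 ± 0.0127 in shtRF, 2.70-fold lower. MYC made up 87.9% of the activator sum in control and 83.3% in shtRF, so the ratio is mostly a ratio of MYC. Per unit of MAX transcript, the activators stood at 0.721 ± 0.0793 in control and 0.199 ± 0.00369 in shtRF, 3.62-fold lower, and the antagonists at 3.10 ± 0.347 and 2.26 ± 0.0710 (SD, n = 3 each). These sums describe transcripts and carry no test, and the proteins were not measured in these libraries.

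**Figure D3:**
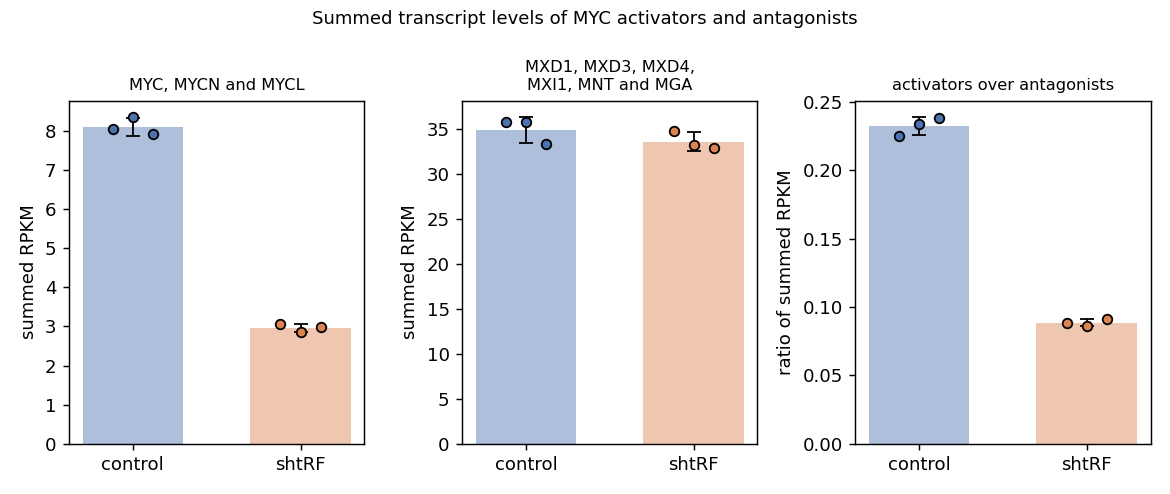
Summed RPKM of MYC, MYCN and MYCL (left), summed RPKM of the 6 antagonists (middle) and their ratio (right), with bars for group means, error bars for the SD and 1 point per library. The activator sum falls from 8.11 to 2.97 RPKM, while the antagonist sum stays near 34 RPKM.

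Genes that work with the network were read from lists of their own, which were picked with earlier results of these data known. In the parallel Mondo branch, which senses glucose products and pairs with MLX in place of MAX, 3 of 4 tested genes rose and none fell by edgeR (1 fell at an unadjusted p under 0.05, and none fell by DESeq2), against 20.6% higher and 18.9% lower over all tested genes. MLXIP, the Mondo protein itself, rose from 14.3 ± 0.621 to 25.2 ± 0.998 CPM (log2 fold change 0.82, edgeR adjusted p = 5.82e-09). TXNIP, its best known target, rose from 79.9 to 102 CPM (0.36 on the log2 scale, edgeR adjusted p = 1.66e-04). MLX rose by 0.21 on the log2 scale (edgeR adjusted p = 0.00789). It shares 18.1% of its exonic bases with PSMC3IP, which had a log2 fold change of 0.296, and the effect of this was not tested. ARRDC4, a second target, had a log2 fold change of -0.19 (edgeR adjusted p = 0.0533) and passed in 9 of 15 alternatives, and MLXIPL, at 0 counts in control and 2 to 4 in shtRF, was too scarce to test. The list's median log2 fold change was 0.28.

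Among 6 tested factors outside the network that bind the E-box, 2 rose and 2 fell (33.3% each, against 20.6% and 18.9% of all tested genes), with a median of -0.06. TFEB, a regulator of lysosome genes, rose from 15.6 to 24.1 CPM (log2 fold change 0.62, edgeR adjusted p = 7.06e-07), and USF1 rose by 0.22 on the log2 scale. TFAP4, itself a MYC target, fell from 20.4 to 16.7 CPM (-0.29 on the log2 scale, edgeR adjusted p = 0.00650). MITF passed the test with overlapping groups (-0.24 on the log2 scale, edgeR adjusted p = 0.0364), and in 8 of 15 alternatives.

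Of 16 cofactors of MYC, 7 fell (43.8%, against 18.9% of all tested genes) and 3 rose (18.8%, against 20.6%), with a median of -0.11. The share that rose was near that of all genes. RUVBL1, an ATPase of the chromatin complexes that MYC recruits, fell from 158 ± 8.36 to 108 ± 0.627 CPM (log2 fold change -0.55, edgeR adjusted p = 3.10e-08). WDR5, which helps to anchor MYC on chromatin, fell from 16.6 to 11.9 CPM (-0.48 on the log2 scale, edgeR adjusted p = 4.51e-05). MYCBP, a MYC-binding protein, fell by 0.69 on the log2 scale. It shares 36.7% of its exonic length with other genes, against 10.4% for RUVBL1 and 11.2% for WDR5. The main overlapping genes of MYCBP, RUVBL1 and WDR5 fell too, with log2 fold changes of -0.65, -0.34 and -0.44, and their share in the counts was not tested. PAF1, which acts in transcript elongation, and ACTL6A, an actin-like chromatin subunit, rose by 0.31 and 0.27.

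The SIN3 corepressor, through which the MXD proteins and MNT act, gave 5 lower (35.7%, against 18.9% of all tested genes) and 4 higher genes of 14 (28.6%, against 20.6%), with a median of 0.004. Its deacetylases HDAC1 and HDAC2 fell from 119 to 90.2 CPM and from 242 to 189 CPM (log2 fold changes -0.41 and -0.35, edgeR adjusted p = 1.17e-06 and 7.35e-05), as did the histone reader ING2 (-0.34). The subunits SUDS3, BRMS1 and ARID4B rose by 0.35, 0.30 and 0.25 on the log2 scale. ARID4B shares 15.7% of its exonic bases, mostly with RBM34, which had a log2 fold change of 0.24.

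In the Polycomb complex that MGA enters, 3 of 9 genes fell (33.3%, against 18.9% of all tested genes) and 2 rose (22.2%, against 20.6%), with a median of -0.04. RNF2, its ubiquitin ligase, fell from 4.45 ± 0.134 to 2.84 ± 0.254 CPM (log2 fold change -0.65, edgeR adjusted p = 4.46e-04), PCGF6, the subunit that defines this variant, by 0.48 and the E2F partner TFDP1 by 0.33 on the log2 scale. L3MBTL2 and YAF2 rose by 0.20 and 0.27, YAF2 with overlapping groups and a call kept in 4 of 15 alternatives. L3MBTL2 shares 16.3% of its exonic bases, mostly with a gene that had a log2 fold change of 0.34. E2F6, CBX3, RING1 and RYBP did not pass the test.

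Among 20 genes that set the lifetime of MYC protein, 5 rose, 5 fell and 10 did not pass, with a median of -0.01. At 25% each way, these shares were near the 20.6% higher and 18.9% lower of all tested genes. FBXO32, an F-box protein that targets MYC for degradation, fell from 33.6 ± 0.995 to 20.0 ± 0.766 CPM (log2 fold change -0.75, edgeR adjusted p = 4.30e-09). SKP2, another F-box protein, fell by 0.48, and the deubiquitinase USP37 by 0.19 on the log2 scale. USP37 shares 32.8% of its exonic bases with VIL1, which had a log2 fold change of -0.365, and the effect of this was not tested. PPP2R5A, a subunit of the phosphatase that starts MYC breakdown, rose from 52.7 ± 2.15 to 70.5 ± 3.51 CPM (0.42 on the log2 scale, edgeR adjusted p = 3.76e-06), and PPP2CA, its catalytic subunit, rose by 0.25.

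Of 9 tested proteins that bind the MYC transcript or its gene, 5 fell and none rose by edgeR (1 rose at an unadjusted p under 0.05, none by DESeq2), with a median of -0.14. This was 55.6% lower, against 18.9% lower and 20.6% higher over all tested genes. ZFP36L1, which speeds the decay of AU-rich messengers, fell from 221 ± 23.3 to 155 ± 10.7 CPM (log2 fold change -0.52, edgeR adjusted p = 2.54e-06). ELAVL1, a stabiliser of such messengers, fell by 0.21, and CELF1, HNRNPK and CNBP fell by 0.15, 0.14 and 0.15 on the log2 scale. These last 3 calls were kept in 9, 10 and 11 of 15 alternatives, and the groups of CNBP overlapped.

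Noncoding RNAs next to MYC and MYCN were scarce, and 3 of the 7 in the table were tested. PVT1, the neighbour of MYC, stood at 5.84 ± 0.210 CPM in control and 5.86 ± 0.812 CPM in shtRF, a difference of 0.007 on the log2 scale (SE 0.117, edgeR adjusted p = 0.973), beside the fall of MYC by 1.48. PCAT1, on the other side of MYC from PVT1, had counts of 32, 21 and 34 in control and 74, 91 and 50 in shtRF. It rose by 1.42 on the log2 scale (edgeR adjusted p = 0.00107). By edgeR 1 of the 3 rose and none fell, against 20.6% higher and 18.9% lower over all tested genes. With only 3 genes, these counts cannot be told from those shares. MYCNOS fell at an unadjusted p under 0.05, and none fell by DESeq2.

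Targets of MYC were read in both directions. Of 57 genes that MYC activates, mostly for ribosome assembly and growth, 25 fell (43.9%, against 18.9% of all tested genes), 7 rose (12.3%, against 20.6%) and 25 did not pass. Their median log2 fold change was -0.15. HSPD1, a mitochondrial chaperone, had 27187, 34210 and 37399 counts in control and 21081, 20954 and 18038 in shtRF. It fell from 446 ± 25.9 to 299 ± 7.23 CPM (log2 fold change -0.58, edgeR adjusted p = 2.30e-08). SLC19A1, the folate carrier, fell from 6.19 ± 0.0604 to 3.58 ± 0.580 CPM (-0.79 on the log2 scale, edgeR adjusted p = 3.49e-05), and NOP16, a ribosome assembly factor, by 0.45. SLC19A1 shares 14.0% of its exonic bases with COL18A1, which had a log2 fold change of -1.40. For NOP16 the shared part was 20.0%, mostly with ARL10, which had a log2 fold change of -0.37. How much these neighbours added to the counts and falls of SLC19A1 and NOP16 was not tested. The ribosome assembly factors RRP12 and NOP2 went the other way, rising by 0.39 and 0.26, as did the kinase MAP3K6 (0.23). The fall of the list was thus shallow beside that of MYC itself, with SLC19A1 at its lower end.

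**Figure D4:**
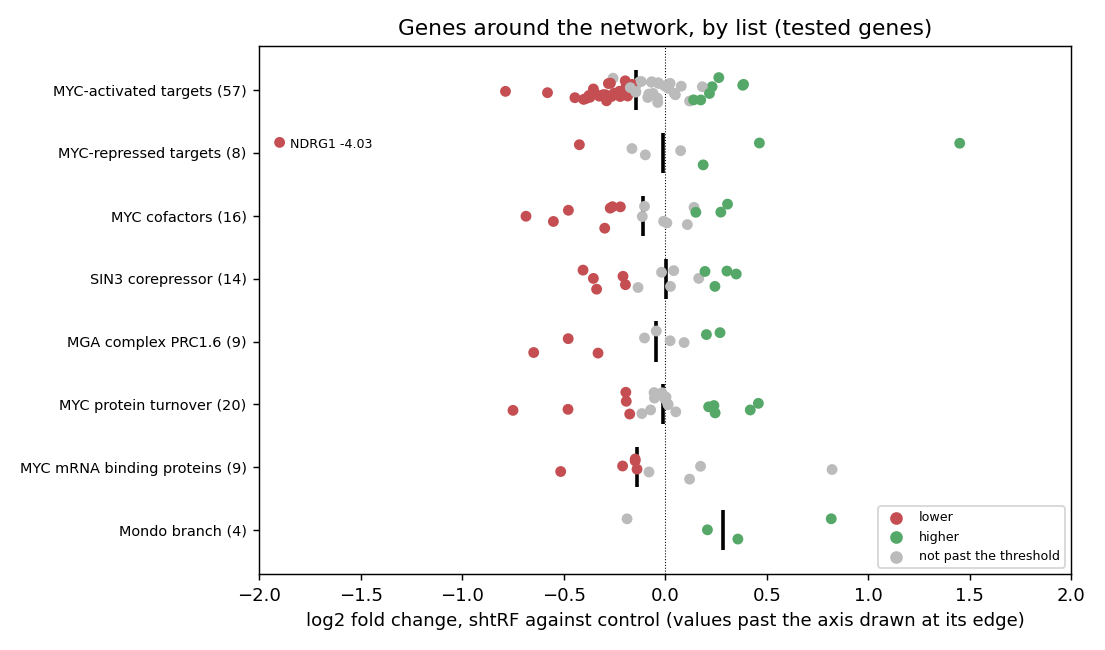
Log2 fold change in shtRF against control of the tested genes in 8 lists around the network, with 1 point per gene, red for genes that fell, green for genes that rose, grey for genes that did not pass, and a black bar at each median. The 57 MYC-activated targets are shifted to the left with a median of -0.15, and the NDRG1 point at -4.03 is drawn at the edge of the axis.

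Of 8 tested genes that MYC is known to repress, 3 rose (37.5%, against 20.6% of all tested genes), 2 fell (25%, against 18.9%) and 3 did not pass, with a median of -0.01. THBS1, an inhibitor of vessel growth, rose from 925 ± 13.2 to 2529 ± 50.6 CPM (log2 fold change 1.45, edgeR adjusted p = 6.28e-15). It shares 7.56% of its exonic bases, mostly with a gene that had a log2 fold change of 1.29. The cell cycle inhibitors CDKN1A (2.86 to 3.94 CPM, edgeR adjusted p = 0.0247) and CDKN2C (20.4 to 23.2 CPM, edgeR adjusted p = 0.0355) rose by 0.46 and 0.19 on the log2 scale, calls kept in 10 and 6 of 15 alternatives. NDRG1, a stress and differentiation gene, had 3368, 4419 and 3410 counts in control and 179, 170 and 275 in shtRF, a fall from 51.0 ± 7.92 to 3.15 ± 1.11 CPM (log2 fold change -4.03, edgeR adjusted p = 4.75e-15). It moved in the same direction as MYC and not in the direction the name of its list gives. CEBPA, a differentiation factor, fell by 0.42 and shares 43.4% of its exonic bases. The main overlapping gene of CEBPA had a log2 fold change of -0.44, and its part in the counts was not tested.

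E-boxes were more frequent in promoters of the MYC-activated list. Of its 46 genes with a RefSeq window, 25 (54.3%) held CACGTG, against 12.4% of the tested genes with a window, a property for which such lists are partly chosen. The E-box was found in 13 of 21 genes that fell (61.9%) and in 12 of 25 that did not fall (48%). Counted by window, of which genes that fell had more, the shares were 13 of 32 (40.6%) and 12 of 28 (42.9%), so the order of the 2 sets depended on the unit counted. As examples, the HSPD1 stretch lies at chr2:197500297-197500422 (minus strand, E-box from position -88) and the MLX stretch at chr17:42566990-42567115 (plus strand, E-box from position -50), both GRCh38.p14 with the E-box in capitals. The first belongs to a target that fell with MYC and the second to a partner gene of the parallel branch that rose. The HSPD1 stretch also lies within HSPE1, a gene of the same list on the opposite strand. HSPE1 had a log2 fold change of only -0.04.
HSPD1: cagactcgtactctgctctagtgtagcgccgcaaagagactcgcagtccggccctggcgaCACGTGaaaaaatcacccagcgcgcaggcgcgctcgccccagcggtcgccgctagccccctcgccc
MLX: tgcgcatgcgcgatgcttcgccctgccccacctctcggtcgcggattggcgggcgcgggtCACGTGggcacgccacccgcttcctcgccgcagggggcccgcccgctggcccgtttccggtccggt

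Among the 3 genes whose levels followed MYC most closely over the 6 libraries, by the distance between centred log2(CPM + 1) values, were OAS3 and FAM110B. OAS3, an interferon-induced enzyme, was at 140 CPM in control and 58.0 CPM in shtRF (distance 0.141), and FAM110B at 6.97 and 1.97 CPM (distance 0.144). With 6 libraries in 2 groups, this likeness mostly reflects a fall of similar size in shtRF.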

How the data were processed

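There were 6 messenger RNA libraries of MDA-MB-453 cells (stranded kit, paired reads). The authors deposited raw read counts per gene over merged exons, on GRCh38. The submitters' processing notes name Trimmomatic 0.36, featureCounts of Subread 1.5.1 and edgeR 3.12.1, and the aligner is not given in the sources used here. The authors also deposited RPKM values. For 4991 genes 100% equalled, within a relative tolerance of 0.0001, the count divided by gene length and library total, so RPKM was recomputed from the counts.

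Counts were tested with edgeR 4.0.16 (R 4.3.3): filterByExpr, TMM, and the quasi-likelihood test with group as the only term, adjusted by the Benjamini-Hochberg method over 19628 genes. TMM factors were 0.961 to 1.03 and the coefficient of variation between replicates was 7.56%. CPM values use TMM factors, RPKM values do not. Of counts of 1 to 4, 74.2% to 77.1% were even, as when both mates are counted, and halved counts were tried after this was seen. The study calls the replicates biological, but nothing says that they were separate transductions, so p-values measure the spread between these libraries. Replicates differed by more than counting noise (chi-square per degree of freedom 5.93 to 17.2). How reads in exons shared by 2 genes were assigned, and whether strand was used, is not given in the sources used here. Where shares are expected under an even spread, neighbour counts were multiplied by the shared part of the neighbour's exons. The script was tested on simulated data.

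The members and lists were chosen with earlier results of these data known. All 10 members are named. From other lists, the 3 largest rises and 3 largest falls are named among genes with an adjusted p under 0.05, at least 2 CPM and no overlap between groups, and any tested gene of lists of up to 11 genes. Some genes that these rules select are not reported here. MLXIPL was named outside this rule after its counts were seen. RefSeq promoter windows are of GRCh38.p14. CBX3 and PLK1 stand in 2 lists each. Of the list entries, CCAT1, MYCNUT and LUM were not matched and CIP2A was matched as KIAA1524. Alternatives were RLE and upper quartile scaling, other filters, DESeq2 1.42.0, limma 3.58.1 on log2(RPKM + 1) and log2(RPKM + 0.1), a replicate block, and leaving out each library.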

Additional observations from a re-analysis of the deposited data

How the results depend on the processing

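Each gene was followed under 15 alternatives. Of 150 values for the 10 network genes, 134 kept their direction and their side of the threshold, 13 kept the direction but no longer passed and 3 changed sign. The 3 were all of MXD4, which was not called: -0.013 and -0.015 under limma with pseudocounts of 1 and 0.1, and -0.016 to 0.078 without single libraries, with -0.016 without shtRF replicate 2. The cause was not tested.

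Of the 10 network genes, 5 were lower, and leaving out single libraries gave 3 to 5, with 3 without shtRF replicate 2 and 3 without shtRF replicate 3, where MXD3 and MGA were lost. In the Mondo branch 1 gene was lower, against none as reported, under RLE, upper quartile scaling, at least 10 counts in every library, both limma fits, the replicate block and halved counts, and 0 to 1 when single libraries were left out (1 without control replicate 2 or shtRF replicate 1). Among other E-box factors DESeq2 called 1 lower, and single libraries gave 0 to 2 (1 without control replicate 1 or 2 or shtRF replicate 2, 0 without shtRF replicate 3). Of the MGA complex 1 gene was higher under upper quartile scaling, no filter, at least 10 counts, DESeq2 and halved counts, 0 under both limma fits, and 1 to 2 with single libraries left out (1 without control replicate 1 or 2, or shtRF replicate 1 or 3). With single libraries left out, lower genes numbered 3 to 5 for MYC protein turnover (5 as reported, 3 without control replicate 3 or shtRF replicate 3) and 2 to 4 for MYC mRNA binding proteins (5 as reported, 3 without control replicate 1 or 2, 2 without control replicate 3 or shtRF replicate 2 or 3). Both limma fits gave 3 higher MYC-activated and 1 higher MYC-repressed targets, and single libraries gave 3 to 8 (4 without control replicate 1 or 2, 3 without shtRF replicate 3) and 1 to 2 (1 without control replicate 3 or shtRF replicate 2).

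The log2 difference in the balance of activators and antagonists was -1.396 as reported, -1.333 with summed CPM, -1.002 with each gene alike, -1.474 with MYC alone, -1.494 without MXD3, and -1.418 to -1.376 without single libraries.

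The labels do not say whether equal replicate numbers mark paired libraries. Deviations of same-numbered libraries correlated by only 0.0592, 0.0178 and 0.0174, which cannot settle this because a weak shared effect could go unseen. With the replicate block 4123 genes were higher and 3776 lower over the table, against 4046 and 3704. Upper quartile scaling gave 3508 and 4174 and limma on log2(RPKM + 1) 2900 and 3803. The median of all genes lay between -0.050 and -0.002 in all settings. Depth limits MYCN, MYCL and the noncoding RNAs most, and counts in shared exons limit MXD1 and MXD3.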
